A study of Mus musculus with 4 samples.

Results

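The 10 chemokine genes described here are Cxcl10, Cxcl9, Cxcl1, Cxcl12, Cxcl14, Cxcl16, Cx3cl1, Ccl2, Ccl5 and Ccl7, chosen by name and matched by symbol to the Entrez identifiers of the deposited tables, among 17667 genes with reads in at least 1 library. All 10 had reads in at least 1 library and 9 had reads in all 4, the exception being Cxcl9. RNA-seq was performed on sympathetic ganglia (SG) of thoracic levels T1–T4, the ganglia that hold the sympathetic neurons supplying brown fat, from C57BL/6 mice aged 12 weeks after 1 day at 5 °C. Each of the 4 libraries was 1 pool from 6 mice, and every group, WT included, had been exposed to the cold. The groups were TRKC+/-, which carried 1 inactive allele of Ntrk3 (encoding TRKC, the receptor of neurotrophin 3) in all cells, AdNTF3-Tg, which expressed mouse neurotrophin 3 from an adiponectin promoter and hence in adipocytes, and the WT pools WT_1 and WT_2. TRKC+/- was paired with WT_1 and AdNTF3-Tg with WT_2, an assignment that the sample labels do not give, so each mutant was also compared with the other WT pool. With 1 library per group there was no spread between replicates, the comparisons of library pairs below carry no test, and every interval covers counting error only. A test was possible only by treating the WT pools as replicates of each other, and its result stands beside the counts of genes.

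Chemokines are small secreted proteins that attract leukocytes through G protein-coupled receptors. Inflammatory members such as Cxcl9, Cxcl10, Ccl2, Ccl5 and Ccl7 are transcribed on demand, by interferon-activated factors and by NF-kB, while homeostatic members such as Cxcl12 and Cxcl14 are made continuously by stromal cells. Cx3cl1 and Cxcl16 are made as membrane-anchored proteins and released by sheddases, and Cx3cl1 is known as a product of neurons that is sensed by macrophages through Cx3cr1.

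Promoter sequences show which of the genes carry the recognition letters of these inducing factors next to their start. RefSeq promoters (assembly GRCm38.p6, 250 bases before and 50 after each gene's start) were given for 6 of the 10 genes (Cxcl10, Cxcl9, Cxcl1, Cxcl12, Cxcl14 and Cx3cl1). Both strands were searched for the interferon regulatory factor (IRF) element GAAANNGAA, the STAT element TTCNNNGAA and the NF-kB consensus, and these occurred in 8.53%, 8.33% and 4.53% of 32544 promoters of the same length. The 250 bases before the start are printed 5′ to 3′ on the gene's strand, with matches in capitals, for Cxcl10, for its neighbour Cxcl9, and for Cxcl14, a homeostatic gene that passed the cutoff in AdNTF3-Tg against each WT pool. Their positions are chr5:92348890-92349139, chr5:92328080-92328329 and chr13:56296552-56296801, all on the minus strand.
Cxcl10: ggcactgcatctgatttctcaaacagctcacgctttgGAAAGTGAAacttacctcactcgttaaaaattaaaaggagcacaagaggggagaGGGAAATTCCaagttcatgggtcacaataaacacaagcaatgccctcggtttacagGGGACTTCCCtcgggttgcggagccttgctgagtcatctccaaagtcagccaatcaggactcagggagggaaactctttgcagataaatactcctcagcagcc
Cxcl9: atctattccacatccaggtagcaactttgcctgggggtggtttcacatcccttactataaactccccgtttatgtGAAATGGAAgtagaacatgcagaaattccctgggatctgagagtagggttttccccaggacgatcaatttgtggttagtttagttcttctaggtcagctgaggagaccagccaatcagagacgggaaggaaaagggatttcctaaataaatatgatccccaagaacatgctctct
Cxcl14: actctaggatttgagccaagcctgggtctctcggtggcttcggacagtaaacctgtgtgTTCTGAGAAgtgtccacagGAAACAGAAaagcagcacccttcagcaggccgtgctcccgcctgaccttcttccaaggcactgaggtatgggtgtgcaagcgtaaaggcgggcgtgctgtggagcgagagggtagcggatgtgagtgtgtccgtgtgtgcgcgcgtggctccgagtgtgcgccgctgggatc
In Cxcl10 the capitals mark an IRF element at -213 to -205 and NF-kB matches at -159 to -150 and -103 to -94, counted from the start of the gene. The capitals in Cxcl9 mark an IRF element at -175 to -167. In Cxcl14 they mark a STAT element at -191 to -183 and an IRF element at -172 to -164. Cxcl1 held an NF-kB match at -71 to -62 that overlapped a match on the opposite strand at -70 to -61, and the windows of Cxcl12 and Cx3cl1 held none of the 3 motifs. A match is a description of the letters and not evidence of binding.

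The libraries held between 8665955 and 8894985 reads on genes, so the floor of 3 reads used here for folds against a gene without reads was between 0.337 and 0.346 CPM. Ntrk3 had 78 reads in WT_1, 91 in TRKC+/-, 83 in WT_2 and 76 in AdNTF3-Tg, so it was not lower in the library labelled TRKC+/-. The paper reports reduced Ntrk3 (Trkc) expression in sympathetic ganglia of TRKC+/- mice, measured apart from these libraries. The 12 sympathetic neuron markers, led by Th and Dbh, were present throughout. Of these, 0 of 12 passed the study's cutoff, an absolute log2 difference of at least 0.5, in any of the 5 comparisons. Of all genes, 10.7% to 13.9% passed. The pools differed in other tissue. Summed FPKM of the 10 skeletal muscle markers was 136 in WT_1, 77.8 in TRKC+/-, 24.8 in WT_2 and 59.9 in AdNTF3-Tg, that of 6 adipocyte markers ranged from 210 to 381 and that of 5 red blood cell markers from 65.2 to 172. The part of these tissues in the chemokine values was not tested.

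Per length, in FPKM (reads scaled to gene length and library), the chemokine genes spanned a wide range of levels. Cxcl12 was the most abundant, with a mean of 18.8 FPKM over the 4 libraries, followed by Cxcl14 with 7.08, Ccl2 with 6.75, Ccl7 with 4.64, Cxcl10 with 3.18, Cxcl16 with 2.01, Ccl5 with 1.27, Cx3cl1 with 0.975, Cxcl1 with 0.47 and Cxcl9 with 0.08. Cxcl12 exceeded Cxcl14 in every library, and Cxcl1 exceeded Cxcl9 in every library, though with counting intervals that overlapped. All other neighbours in this order had ranges over the libraries that overlapped, and the counting intervals of the pooled reads overlapped between Cxcl14 and Ccl2, between Cxcl16 and Ccl5 and between Ccl5 and Cx3cl1. The highest library exceeded the lowest 1.12-fold for Cxcl12, 2.38-fold for Ccl2, 4.71-fold for Cxcl10 and 13.1-fold for Ccl5, the last on 1 to 13 reads.

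**Figure D1:**
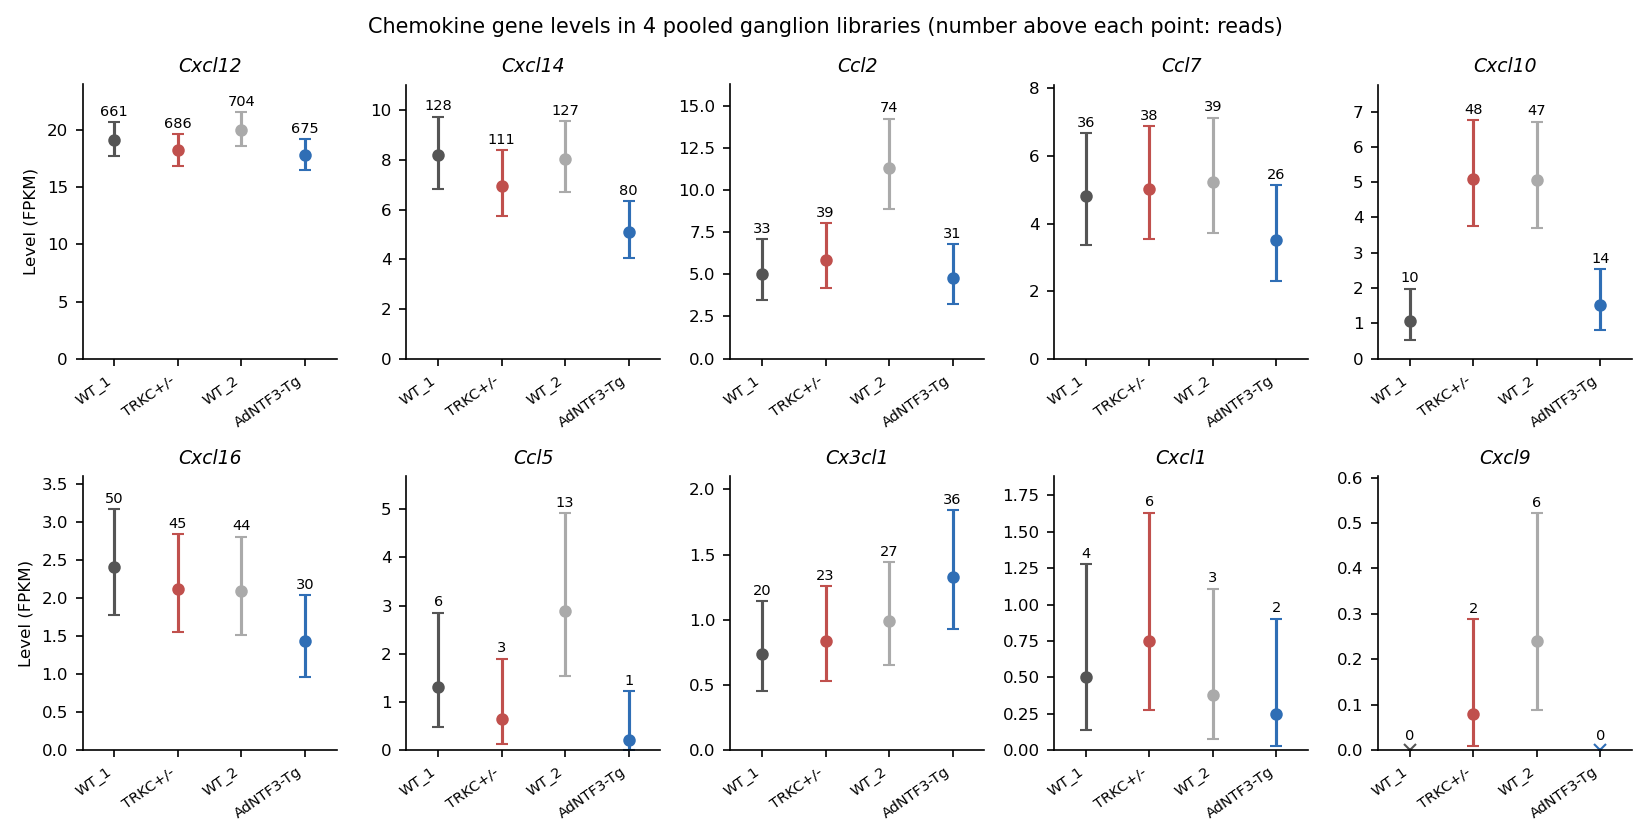
FPKM of the 10 chemokine genes (y axis, each panel with its own scale from 0) in the 4 libraries (x axis), ordered by mean level, with exact 95% Poisson intervals of the reads as bars and the reads printed above. Crosses mark a library without reads. Cxcl10 sits at 5.09 and 5.05 FPKM in TRKC+/- and WT_2 and at 1.08 and 1.51 FPKM in WT_1 and AdNTF3-Tg.

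Cxcl10 and Cxcl9 encode interferon-induced ligands of Cxcr3, a receptor of activated T cells and NK cells. Cxcl10 (Entrez 15945, chr5:92775664-92777915 on NCBIM37, minus strand) had 10 reads in WT_1, 48 in TRKC+/-, 47 in WT_2 and 14 in AdNTF3-Tg, or 1.08, 5.09, 5.05 and 1.51 FPKM. The 4 values formed a high pair, TRKC+/- and WT_2, and a low pair, WT_1 and AdNTF3-Tg, whose counting intervals did not overlap, and each pair held a WT and a mutant pool. On the scale of log2(FPKM + 0.1), Cxcl10 was 2.14 higher in TRKC+/- than in WT_1 (95% counting interval of the read ratio 1.22 to 3.37) and differed by -1.68 in AdNTF3-Tg from WT_2 (-2.72 to -0.85). The WT pools themselves differed by 2.13 (1.20 to 3.35), WT_2 being higher. Against the other WT pool, the log2 difference was 0.01 (-0.59 to 0.63) for TRKC+/- and 0.45 (-0.81 to 1.79) for AdNTF3-Tg. In tissue of mixed cells, fewer cells of a type and less RNA per cell cannot be told apart. Cxcl10 was picked by the study for its opposite change in these same libraries, so that pattern is a description and not independent evidence. The paper also reports real-time RT-PCR of Cxcl10 in ganglia, lower in AdNTF3-Tg and higher in TRKC+/- than in WT. That measurement was not re-examined here.

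Cxcl9 (Entrez 17329, chr5:92750357-92757105 on NCBIM37, minus strand) lies next to Cxcl10. It had 0 reads in WT_1, 2 in TRKC+/-, 6 in WT_2 and 0 in AdNTF3-Tg, so its only reads were in the libraries where Cxcl10 was high. With AdNTF3-Tg set at the floor of 3 reads, Cxcl9 was 1.99-fold higher in WT_2, a size set by that floor. The counting interval of the log2 read ratio, AdNTF3-Tg against WT_2, had an upper limit of -0.23. No fold was given for TRKC+/- against WT_1, since both were at or under the floor. Cxcl11, the remaining gene of this group and named here after its values were seen, had 1 read in WT_1 and 0 in the other 3 libraries. Their receptor Cxcr3 had 2 to 4 reads per library. The 13 T and NK cell markers summed to 12 reads in WT_1, 22 in TRKC+/-, 32 in WT_2 and 33 in AdNTF3-Tg, with Cd3d at 0 in every library and 16 of the 33 reads in AdNTF3-Tg from Lck alone. The part of T and NK cells in the Cxcl10 values was not tested.

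Ccl2 and Ccl7 encode ligands of Ccr2, which draws monocytes into tissue, and they are neighbours on chromosome 11. Ccl2 (Entrez 20296, chr11:81849073-81850955 on NCBIM37, plus strand) had 33 reads in WT_1, 39 in TRKC+/-, 74 in WT_2 and 31 in AdNTF3-Tg, or 5.03, 5.87, 11.33 and 4.77 FPKM. WT_2 alone stood apart, and the other 3 libraries had counting intervals that overlapped. The log2 difference was -1.23 (-1.90 to -0.63) for AdNTF3-Tg against WT_2 but -0.08 against WT_1, and it was 0.22 (-0.50 to 0.92) for TRKC+/- against WT_1 but -0.94 (-1.53 to -0.35) against WT_2. Between the WT pools it was 1.16 (0.52 to 1.77). Ccl7 (Entrez 20306, chr11:81859214-81861027 on NCBIM37, plus strand) had 36, 38, 39 and 26 reads in WT_1, TRKC+/-, WT_2 and AdNTF3-Tg. AdNTF3-Tg was lowest, with log2 differences of -0.56 (-1.35 to 0.17) from WT_2 and -0.45 (-1.28 to 0.28) from WT_1, both with intervals that held 0, and the other 3 libraries lay within 3 reads of each other.

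Ccl5 encodes a chemokine that is made by T cells and by other cells under inflammatory stimuli. Ccl5 (Entrez 20304, chr11:83339280-83344020 on NCBIM37, minus strand) had 6 reads in WT_1, 3 in TRKC+/-, 13 in WT_2 and 1 in AdNTF3-Tg. WT_2 was again the highest. The log2 difference between AdNTF3-Tg and WT_2 was -3.22, with an interval of -9.10 to -0.96 that rests on the single read. It was -1.67 with a pseudocount of 1 FPKM and -2.32 from TMM-scaled CPM, so its size depends on the scale. Against WT_1 it was -2.14 (-8.13 to 0.43). TRKC+/- differed by -0.91 (-3.67 to 1.19) from WT_1 and by -1.99 (-4.57 to -0.26) from WT_2. Cxcl1, a ligand of the neutrophil receptor Cxcr2 (Entrez 14825, chr5:91320267-91322141 on NCBIM37, plus strand), had only 4, 6, 3 and 2 reads in the same order. At this depth no difference of Cxcl1 was detectable, the interval for TRKC+/- against WT_1 running from -1.53 to 2.82 around 0.50.

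Cxcl12, the ligand of Cxcr4, and Cxcl14, which is produced by stromal and epithelial cells, were the deepest counted members. Cxcl12 (Entrez 20315, chr6:117118553-117131385 on NCBIM37, plus strand) had 661, 686, 704 and 675 reads and 19.18, 18.25, 20.04 and 17.85 FPKM in WT_1, TRKC+/-, WT_2 and AdNTF3-Tg. These levels were the steadiest of the 10 genes, with log2 differences of -0.07 (-0.14 to 0.17) for TRKC+/- against WT_1 and -0.17 (-0.21 to 0.10) for AdNTF3-Tg against WT_2. Cxcl14 (Entrez 57266, chr13:56390008-56397912 on NCBIM37, minus strand) had 128, 111, 127 and 80 reads, or 8.20, 6.97, 8.05 and 5.10 FPKM. AdNTF3-Tg was the lowest, and the WT pools lay within 0.03 of each other on the log2 scale, WT_2 against WT_1 being -0.03. Cxcl14 differed by -0.65 (-1.08 to -0.25) in AdNTF3-Tg from WT_2 and by -0.67 (-1.12 to -0.29) from WT_1. In TRKC+/- the log2 difference of Cxcl14 was -0.23 (-0.62 to 0.13) from WT_1 and -0.21 from WT_2.

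Cxcl16, a ligand of Cxcr6 (Entrez 66102, chr11:70267485-70273486 on NCBIM37, minus strand), had 50 reads in WT_1, 45 in TRKC+/-, 44 in WT_2 and 30 in AdNTF3-Tg. It was lowest in AdNTF3-Tg, by a log2 difference of -0.52 (-1.27 to 0.16) from WT_2 and -0.71 (-1.46 to -0.08) from WT_1. Cx3cl1, or fractalkine (Entrez 20312, chr8:97295909-97306323 on NCBIM37, plus strand), had 20, 23, 27 and 36 reads in WT_1, TRKC+/-, WT_2 and AdNTF3-Tg. It was the only member highest in AdNTF3-Tg, where its log2 difference was 0.39 (-0.34 to 1.20) from WT_2 and 0.77 (0.00 to 1.69, the lower bound being just under 0) from WT_1. Of 8 sheddases, proteases and mRNA decay factors that act on chemokines, all had reads in the 4 libraries. In TRKC+/- against WT_1, 1 was lower at the cutoff (all genes 6.06%). In AdNTF3-Tg against WT_2, 1 was higher and 1 lower (all genes 6.21% and 7.10%). With the counting interval 0 passed in either, where 3.0% and 5.05% of all genes did.

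**Figure D2:**
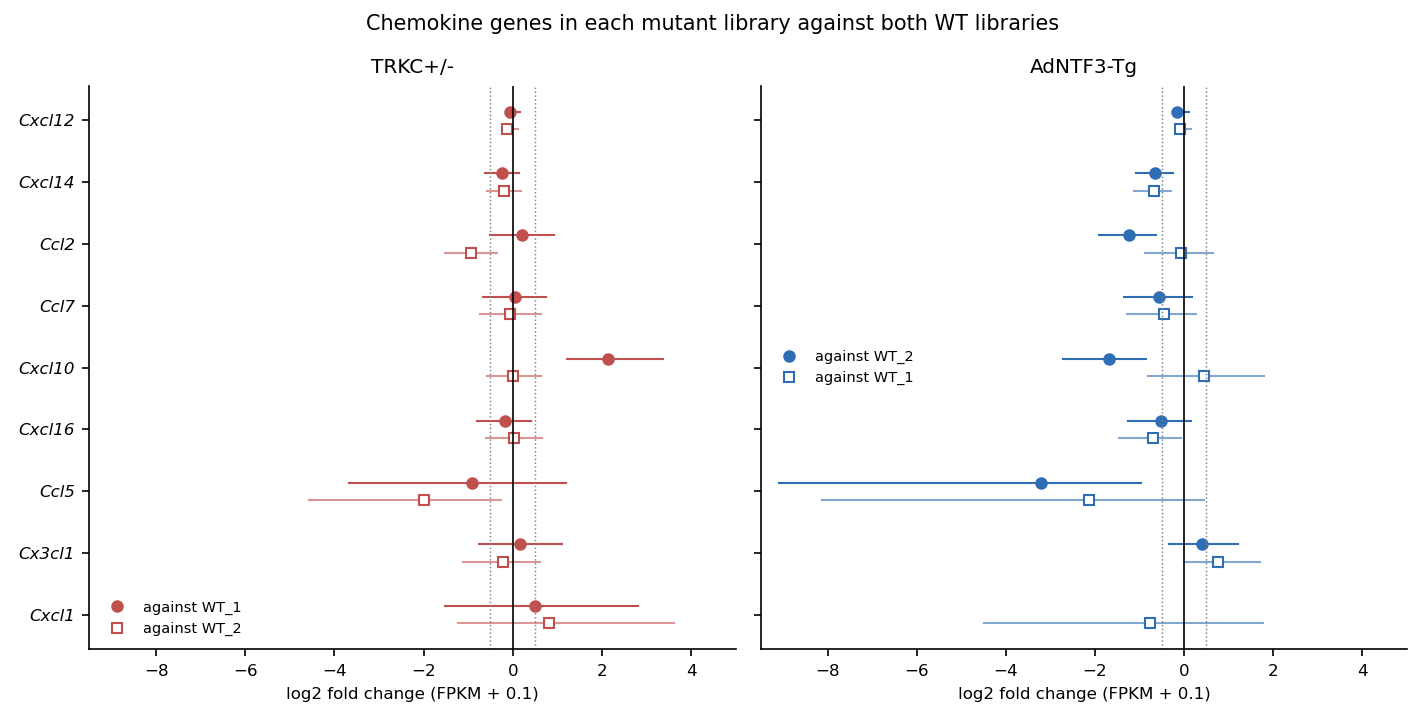
Differences in log2(FPKM + 0.1) of the 9 chemokine genes with reads in all 4 libraries (x axis), for TRKC+/- (left) and AdNTF3-Tg (right) against their own WT pool (filled circles) and the other WT pool (open squares), with 95% counting intervals of the read ratio as lines and the cutoff of 0.5 dotted. Cxcl1 in AdNTF3-Tg against WT_2 is left out because both libraries had 3 reads or fewer. Cxcl10 changes place with the WT pool used, from 2.14 to 0.01 in TRKC+/- and from -1.68 to 0.45 in AdNTF3-Tg, while Cxcl14 in AdNTF3-Tg stays at -0.65 and -0.67.

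Counted together, the chemokine genes were set against the share of all 15275 genes that passed the same cutoff, with or without a counting interval that did not reach 0. In TRKC+/- against WT_1, 3 of 9 passed (Cxcl10 and Cxcl1 higher, Ccl5 lower), against 10.7% of all genes, and 1, Cxcl10, passed with the interval, against 3.0%. In AdNTF3-Tg against WT_2, 6 of 9 passed and all were lower (Cxcl10, Ccl2, Ccl5, Cxcl14, Ccl7 and Cxcl16), against 13.3% of all genes. With the interval 4 passed (Cxcl10, Ccl2, Ccl5 and Cxcl14), against 5.05%. The median log2 difference of the 9 genes was 0.05 in the former comparison and -0.56 in the latter, and that of all genes was 0 in both.

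The WT pools also differed from each other. In WT_2 against WT_1, 3 of 9 passed and all were higher (Cxcl10, Ccl2 and Ccl5), against 13.4% of all genes, and 2 passed with the interval (Cxcl10 and Ccl2), against 5.15%. With the other WT pool as control, TRKC+/- had 3 of 9 past the cutoff (Cxcl1 higher, Ccl2 and Ccl5 lower; all genes 12.7%) and 2 with the interval (all genes 4.56%). AdNTF3-Tg against WT_1 had 5 of 9 (Cx3cl1 higher, and Cxcl14, Cxcl16, Ccl5 and Cxcl1 lower; all genes 13.9%) and 2 with the interval, Cxcl14 and Cxcl16 (all genes 5.73%). Cxcl14 in AdNTF3-Tg was the only one of the 9 genes that passed the cutoff and the interval against both WT pools in either mutant. The share of all genes that passed against both pools was not counted, so Cxcl14 cannot be set against a background here. All these comparisons share libraries and are not independent of each other. An edgeR quasi-likelihood test that treated both WT pools as 1 group of 2, with 1 residual degree of freedom, called 0 of 15275 genes at an adjusted p of 0.05 for either mutant, while 262 genes for TRKC+/- and 699 for AdNTF3-Tg had an unadjusted p under 0.05. In that edgeR test the lowest adjusted p of a member was 0.999 in TRKC+/- and 0.827 in AdNTF3-Tg, and the lowest unadjusted p was 0.0287, for Cxcl14 in AdNTF3-Tg.

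AdNTF3-Tg was the lowest of the 4 libraries for 7 of the 9 genes, where 27.3% of all genes had their lowest level in this library. The exceptions were Cxcl10, lowest in WT_1, and Cx3cl1. Set against the range of the WT pools, all 10 genes included, AdNTF3-Tg lay below it for 7, within it for 2 and above it for 1, and TRKC+/- lay below it for 3, within it for 5 and above it for 2. Among all genes AdNTF3-Tg lay below the range for 34.0%, within it for 32.4% and above it for 33.7%, and TRKC+/- for 30.8%, 37.4% and 31.9%. WT_2 was the highest library for 4 of the 9 genes, where 23.0% of all genes were highest.

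Of 30 other chemokine ligand genes, 23 had reads somewhere and 13 had reads in all 4 libraries. AdNTF3-Tg was the lowest library for 11 of the 13, where it was lowest for 27.3% of all genes. In AdNTF3-Tg against WT_2, 1 was higher and 6 were lower at the cutoff, 1 and 3 of them with the interval, and the median log2 difference was -0.42. Of all genes, 6.21% were higher and 7.10% lower at the cutoff, and 2.39% and 2.66% with the interval. Against WT_1, 0 were higher and 7 lower in AdNTF3-Tg, with a median of -0.60, where 5.62% of all genes were higher and 8.24% lower. In TRKC+/- against WT_1, 0 were higher and 1 was lower, with 0 past the interval and a median of -0.27, where 4.63% of all genes were higher and 6.06% lower. Ccl12, a Ccr2 ligand, had 21 reads in WT_1, 16 in TRKC+/-, 22 in WT_2 and 2 in AdNTF3-Tg, a log2 difference of -3.19 (-6.59 to -1.43) from WT_2 and -3.11 (-6.55 to -1.38) from WT_1. Cxcl13, which attracts B cells, had 10, 14, 21 and 8 reads, with -1.29 (-2.77 to -0.15) in AdNTF3-Tg against WT_2 and -0.29 (-1.89 to 1.15) against WT_1. Ccl21b was the gene that was higher, at 1.62 (0.74 to 2.78) against WT_2 but 0.17 (-0.56 to 0.83) against WT_1, with 35, 45.39, 12.3 and 39 estimated reads. Its reads are divided among near-identical copies and the value is uncertain.

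The Ccl genes beside Ccl2 on chromosome 11 had their lowest level in the same library, an observation made after their values were seen. Ccl11, the eosinophil attractant eotaxin, had 252 reads in WT_1, 202 in TRKC+/-, 204 in WT_2 and 153 in AdNTF3-Tg, and Ccl8 had 28, 25, 27 and 17. Ccl2, Ccl7, Ccl11, Ccl12 and Ccl8 follow each other between chr11:81849073-81930301 on NCBIM37, and all 5 were lowest in AdNTF3-Tg. Ccl12 stood out for its 2 reads, whereas the highest library was WT_2 for Ccl2, Ccl7 and Ccl12 and WT_1 for Ccl11 and Ccl8.

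**Figure D3:**
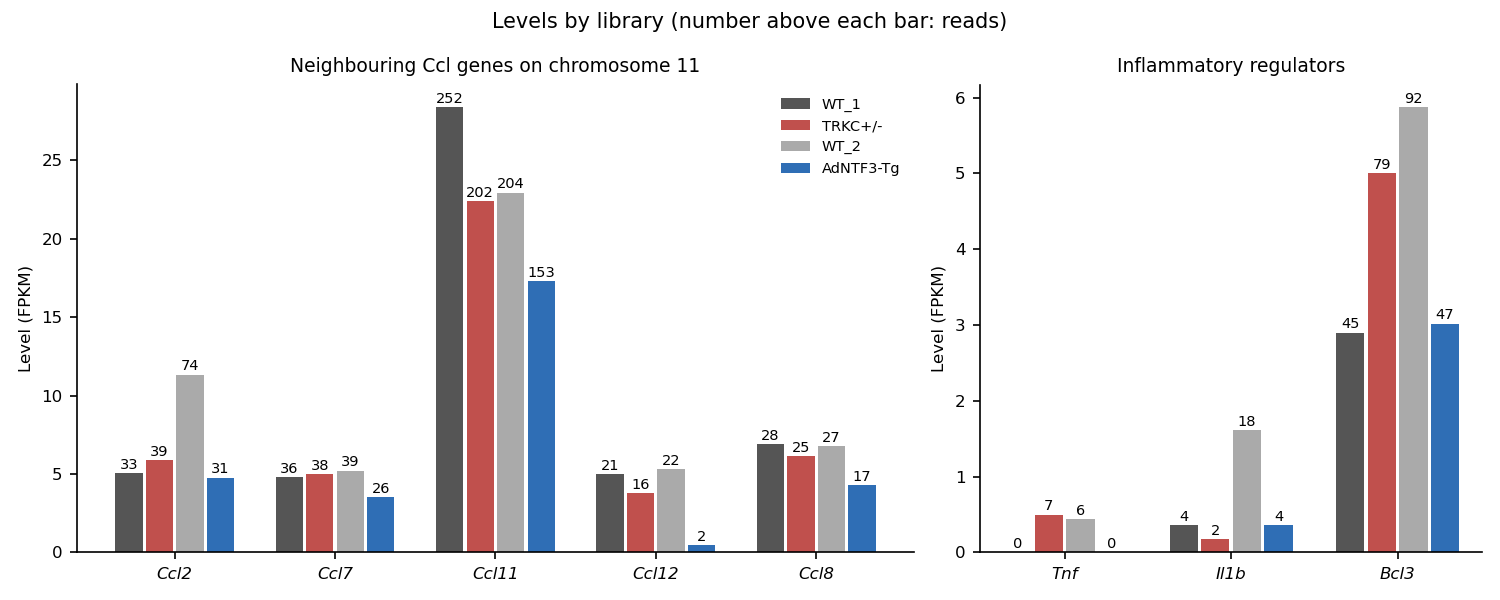
FPKM (y axis, from 0) of the 5 neighbouring Ccl genes on chromosome 11 (left) and of the cytokines Tnf and Il1b and the NF-kB cofactor Bcl3 (right), with 1 bar per library and the reads printed above each. AdNTF3-Tg is the lowest bar for each of the 5 Ccl genes, and Tnf has reads only in TRKC+/- and WT_2.

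Receptor genes of these ligands were measured in the same libraries. All 12 receptors of the members had reads in at least 1 library and 9 had reads in all 4. The most abundant per length were Ackr1, a scavenger receptor of endothelium and red blood cells, with 39.18 to 48.16 FPKM, and Cxcr4, the receptor of Cxcl12, with 22.85 to 27.18 FPKM. Ackr3, the scavenger of Cxcl12, ranged from 3.66 to 5.81 FPKM, Ccr2 from 3.35 to 4.45, Cx3cr1 from 2.80 to 4.01, Cxcr2 from 1.17 to 3.07 and Ccr1 from 0.87 to 1.13 FPKM. Cxcr3, Cxcr6, Ccr3 and Ackr2 had at most 6 reads in any library. Among these, the receptors of Cxcl10 and Cxcl16 were close to the floor.

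None of the 9 receptors passed the cutoff in TRKC+/- against WT_1 (all genes 10.7%), and 3 were lower in AdNTF3-Tg against WT_2, 2 of them with the interval, where 7.10% and 2.66% of all genes were lower. Cxcr2, the receptor of Cxcl1 on neutrophils, had 79.82, 75.17, 51.45 and 30.69 estimated reads in WT_1, TRKC+/-, WT_2 and AdNTF3-Tg, with a log2 difference of -0.69 (-1.40 to -0.04) in AdNTF3-Tg against WT_2 and -1.32 (-2.04 to -0.78) against WT_1. Cxcr2 also differed between the WT pools, by -0.63 (-1.22 to -0.15) in WT_2 against WT_1. Cx3cr1, the fractalkine receptor of macrophages, differed by -0.50 (-0.92 to -0.12) in AdNTF3-Tg against WT_2 but by -0.13 (-0.57 to 0.28) against WT_1, with 99, 94, 131 and 91 reads in WT_1, TRKC+/-, WT_2 and AdNTF3-Tg. The median of the 9 receptors was -0.10 in TRKC+/- against WT_1 and -0.26 in AdNTF3-Tg against WT_2. Of 11 other chemokine receptors, 5 had reads in all libraries and 0 passed with the interval in either comparison (all genes 3.0% and 5.05%).

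Receptors such as Ccr2 and Cx3cr1 are carried by monocytes and macrophages, whose markers also varied. Summed FPKM of the 14 macrophage markers was 225 in WT_1, 204 in TRKC+/-, 195 in WT_2 and 167 in AdNTF3-Tg, with 0 of the 14 at 0 reads in any library. AdNTF3-Tg was below WT_1 for 14 of 14 and below WT_2 for 10 of 14, where 50.4% and 48.5% of all genes were. In AdNTF3-Tg against WT_2, 1 macrophage marker was higher (all genes 6.21%) and 2 were lower (all genes 7.10%) at the cutoff, the latter being Fcgr1 at -1.28 (-2.16 to -0.60) and Cd14 at -0.76 (-1.45 to -0.14). Against WT_1 they were at -0.49 (-1.42 to 0.31) and -0.53 (-1.25 to 0.11). In that comparison 0 of the 14 were higher (all genes 5.62%) and 4 lower (8.24%), 3 of them with the interval (3.51%). In TRKC+/- against WT_1, 0 of the 14 were higher (all genes 4.63%) and 2 lower (6.06%), 1 with the interval (1.81%). Cd14 was lowest in TRKC+/-, with 48, 23, 57 and 33 reads in WT_1, TRKC+/-, WT_2 and AdNTF3-Tg. It differed by -1.04 (-1.88 to -0.35) in TRKC+/- from WT_1. Endothelial markers summed to between 92.7 and 99.0 FPKM, fibroblast markers to 248 to 324, satellite glia markers to 544 to 711 and myelinating Schwann cell markers to 540 to 575. The 6 neutrophil markers summed to between 0.84 and 2.50 FPKM, and the 4 B cell markers to between 0.54 and 0.99 FPKM. The part of macrophage number in the chemokine values was not tested.

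Inducers of chemokine transcription were examined next. Of 21 cytokines, receptors and transcription factors, 17 had reads in all libraries, and Ifng and Ifnb1, which encode interferons, had 0 reads in every library. In AdNTF3-Tg against WT_2, 0 of the 17 were higher and 4 were lower, all 4 with the interval, where 7.10% and 2.66% of all genes were lower by these rules. Against WT_1, 1 of the 17 was lower in AdNTF3-Tg (all genes 8.24%), and between the WT pools 3 were higher in WT_2 (all genes 5.67%). Il1b, an inflammatory cytokine, had 4 reads in WT_1, 2 in TRKC+/-, 18 in WT_2 and 4 in AdNTF3-Tg, a log2 difference of -1.89 (-4.19 to -0.56), so WT_2 alone was high, as for Ccl2. Bcl3, a cofactor of NF-kB, had 45, 79, 92 and 47 reads, with 0.77 (0.23 to 1.34) in TRKC+/- against WT_1 and -0.94 (-1.5 to -0.44) in AdNTF3-Tg against WT_2 but 0.06 (-0.58 to 0.66) against WT_1. Irf7, an interferon regulatory factor, had 93, 117, 113 and 64 reads, with -0.80 (-1.28 to -0.36) in AdNTF3-Tg against WT_2 and -0.53 (-1.04 to -0.09) against WT_1. Tnf, singled out after its values were seen, had 0, 7, 6 and 0 reads, with reads only in the libraries where Cxcl10 was high.

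Interferon-stimulated genes, the usual company of Cxcl10, were counted on more reads. All 24 had reads in every library, and their summed level was 195 FPKM in WT_1, 224 in TRKC+/-, 238 in WT_2 and 171 in AdNTF3-Tg. In TRKC+/- against WT_1, 4 were higher and 0 lower at the cutoff, 2 with the interval, against 4.63% and 1.20% of all genes higher, and the median log2 difference was 0.28. In AdNTF3-Tg against WT_2, 12 were lower and 0 higher, 10 with the interval, against 7.10% and 2.66% of all genes lower by the same rules, and the median was -0.47. With the other WT pool as control these counts were smaller. AdNTF3-Tg against WT_1 had 2 of 24 lower, close to the 8.24% of all genes, and a median of -0.06, and TRKC+/- against WT_2 had 0 higher, 1 lower (all genes 6.74% and 5.92%) and a median of -0.08. The WT pools also differed, WT_2 being above WT_1 for 24 of 24 with a median of 0.31, where 51.2% of all genes were below. At the cutoff 4 were higher in WT_2, all 4 with the interval (all genes 5.67% and 1.97%), and 0 were lower (all genes 7.71%). Mx1, an antiviral GTPase, had 16, 41, 55 and 23 reads, Isg15, a ubiquitin-like modifier, had 119, 144, 130 and 69, and Ifit3, an antiviral protein gene, had 323.35, 430.48, 414.14 and 220.14 estimated reads in WT_1, TRKC+/-, WT_2 and AdNTF3-Tg. For both Isg15 and Ifit3, the log2 difference of AdNTF3-Tg from WT_2 was -0.90, with intervals of -1.35 to -0.47 and -1.15 to -0.67, and from WT_1 it was -0.76 (-1.26 to -0.37) and -0.56 (-0.83 to -0.33).

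**Figure D4:**
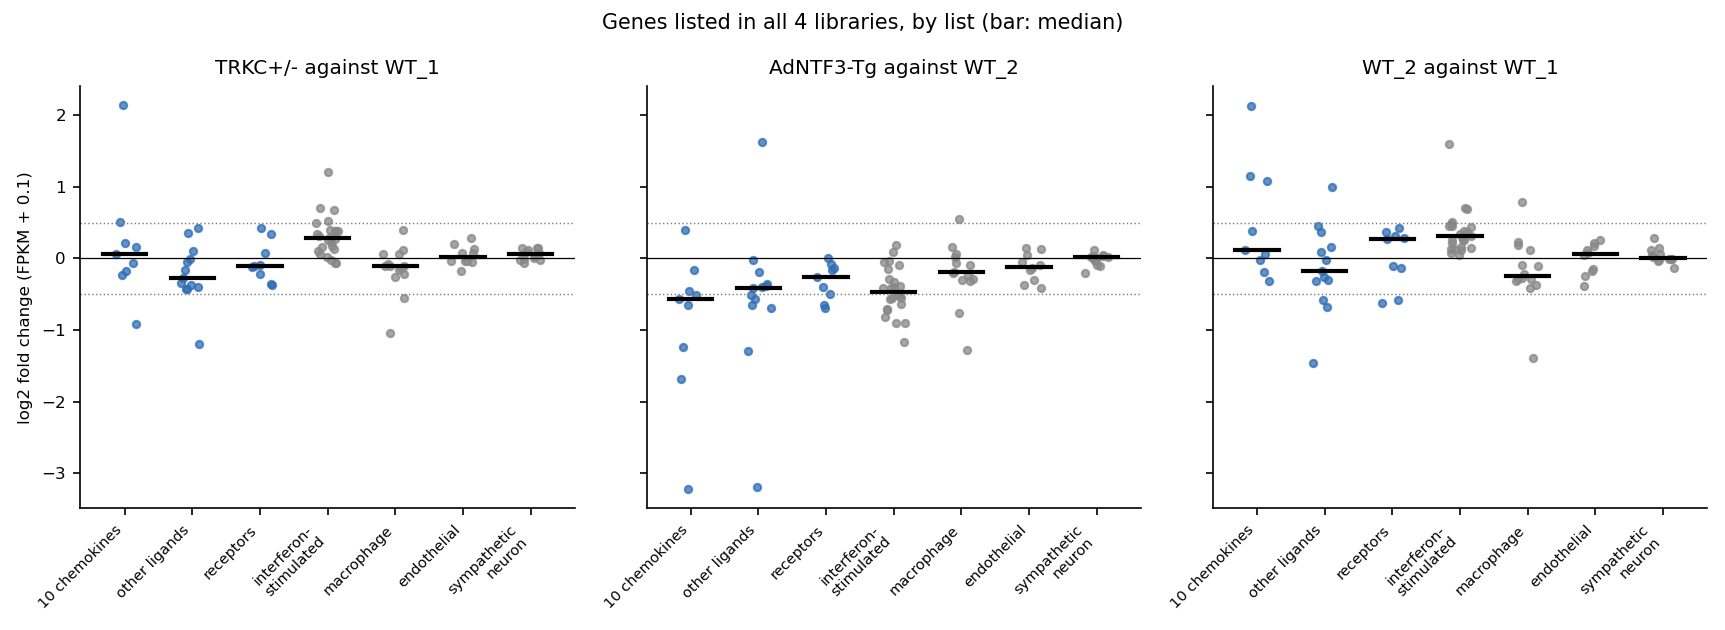
Differences in log2(FPKM + 0.1) (y axis) of single genes with reads in all 4 libraries, by gene list (x axis), for TRKC+/- against WT_1 (left), AdNTF3-Tg against WT_2 (middle) and WT_2 against WT_1 (right), with the median of each list as a bar and the cutoff of 0.5 dotted. The medians of the chemokine genes and of the interferon-stimulated genes are -0.56 and -0.47 in AdNTF3-Tg against WT_2. In the 3 panels 0 of the 12 sympathetic neuron markers reach the cutoff, where 10.7%, 13.3% and 13.4% of all genes do.

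Among 12752 genes averaging 1 FPKM or more, the 5 whose levels over the 4 libraries were closest to those of Cxcl10, by Euclidean distance of centred log2(FPKM + 0.1), were Mx1 (0.779), Snora73a (0.809), Tgm1 (0.842), 0610038B21Rik (0.846) and Tmsb15b1 (0.876). Snora73a had only 1 to 3 reads per library. Mx1 and Tgm1 are among the genes that the study chose with Cxcl10 for opposite changes in these libraries. Of the other 9 members, 6 reached this level and were ranked, among them Ccl2 at rank 72 with a distance of 1.41, Ccl7 at rank 700 and Ccl5 at rank 12504. Cxcl9, Cxcl1 and Cx3cl1 fell short of it and were not ranked. With only 4 libraries behind each pattern, closeness describes these libraries alone.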

How the data were processed

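SG RNA was enriched with oligo(dT) and sequenced as single-end reads. Per the study's methods, reads were filtered with SOAPnuke (v1.5.2) and mapped with HISAT2 (v2.0.4) to mm9, whereas the submitters' processing notes name RSEM and mm10, and strand-aware counting was not given in the sources used here. The authors deposited expected counts, not normalized, and FPKM per Entrez gene. Genes missing from a table were taken as having no reads. Differences were log2((FPKM + 0.1)/(FPKM + 0.1)) over 15275 genes listed in all 4 libraries, with the study's cutoff of 0.5. Exact Clopper-Pearson 95% intervals used counts rounded to whole numbers and were converted to read ratios per library total. The 10 members and all gene lists were chosen with earlier results of these data known. Named were the members, their receptors (some values are not reported here), Ntrk3, per other list at most 3 genes with the largest differences past the counting interval, and the 5 genes nearest to Cxcl10; other genes are marked in the text. Alternatives were other pseudocounts, cutoffs, filters, scalings and controls, TMM-scaled CPM and edgeR (v4.0.16) quasi-likelihood tests with Benjamini-Hochberg adjustment. Scripts were tested on simulated data. RefSeq names matched 17619 identifiers (99.7%).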

Additional observations from a re-analysis of the deposited data

How the results depend on the processing

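With 1 pool per group, counting error is known and variation between mice is not, and genes with few reads, such as Cxcl1, Cxcl9 and Ccl5, had wide intervals at this depth. Of 192 recomputed log2 differences of single members, 187 moved by less than their counting interval (7 of them changing sign around 0), 4 moved by more (Ccl2 in TRKC+/- to -0.94 with WT_2 as control, from 0.22) and 1 reversed: Cxcl10 in AdNTF3-Tg was 0.45 with WT_1 as control. The 21 with a filter on the mean level and the 27 with absent genes taken as 0 could not move. Those settings only change which genes are kept. Nor could the mutant comparisons move when centred on the median, which was 0. All that moved by more or reversed came from a change of control. With the other WT pool 3 moved, 1 reversed and 14 stayed, and with the mean of both WT pools 1 moved and 17 stayed. The 3 chemokine genes past the cutoff in TRKC+/- against WT_1 became 1 with a pseudocount of 1 FPKM, 1 at a cutoff of 1 and 0 with edgeR, and the 1 past the counting interval became 2 with the other WT pool. The 6 in AdNTF3-Tg against WT_2 became 3 at a cutoff of 1 and 0 with edgeR, and the 4 past the interval became 2 with the other WT pool. Counts between the WT pools stayed within 1.5 times under every alternative run for them. Adding the counting interval lowered the number of all genes past the cutoff from 1632 to 459 in TRKC+/- against WT_1, from 2033 to 772 in AdNTF3-Tg against WT_2 and from 2044 to 786 between the WT pools. In alternatives chosen after seeing the data, AdNTF3-Tg was lowest for 7 of 9 chemokine genes without WT_2 and 8 of 9 without WT_1, and for 11 of 13 other ligands without WT_2 and likewise without WT_1. Of all genes, 37.3% were lowest in AdNTF3-Tg without WT_2 and 33.3% without WT_1. Cxcl10 in TRKC+/- was 0.71 above the mean of both WT pools. No paired analysis was possible because each group was 1 library.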
